A study of Mus musculus with 2 samples.

Results

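Chemokines are small secreted or membrane-anchored proteins that steer leukocytes, and endothelial cells (ECs), the cells that line blood vessels, display several of them to cells passing in the blood. The genes described here are 8 chemokine ligands out of the 32245 gene symbols measured in mouse lung ECs: Cxcl1, Cxcl2, Cxcl9, Cxcl10, Cxcl16, Ccl2, Ccl7 and Cx3cl1. They were taken as a fixed list by symbol, and the list was drawn up with earlier results of these libraries in view, so their levels and ratios are given as a description and without a test. In the named vessel classes 4 of them, Cxcl1, Cxcl2, Ccl2 and Ccl7, were at or near 0 in both libraries, so that an endothelial source of these 4 was barely seen at this depth.

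The study asked how lung ECs respond in the first hours after tumor cells arrive in the lung. Wild-type C57BL/6 mice received either PBS (control) or 400000 cells of B16-F10, a cultured mouse melanoma line, in 100 µl of PBS through the tail vein, and lungs were taken 6 h later in both groups. By the labels, cells of 2 mice per treatment were pooled. They were sorted as Pecam1-positive (an endothelial surface protein) and Ptprc-negative (Ptprc marks leukocytes). The dye-labelled melanoma cells were added back to the B16-F10 sample, and each pool gave 1 single-cell library. By the study's methods the mice were males aged 8 to 10 weeks, and tail vein injection places tumor cells directly in the lung circulation without a primary tumor. With 1 library per group there was no replicate error, the treatment and the library cannot be told apart, and every interval below covers counting error only.

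Chemokines are grouped by the spacing of their first cysteines, and the groups act on different leukocytes. Cxcl1 and Cxcl2 bind Cxcr2 and draw neutrophils. Ccl2 and Ccl7 bind Ccr2 and draw monocytes. Cxcl9 and Cxcl10 are induced by interferons and bind Cxcr3 on activated T cells and NK cells. Cxcl16 and Cx3cl1 are made as transmembrane proteins, can hold cells that carry Cxcr6 or Cx3cr1 on the endothelial surface, and are released when the proteases Adam10 and Adam17 cut them.

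The ligands of the same receptor lie beside each other in the mouse genome (GRCm38, GENCODE M21). Cxcl1 (chr5:90891241-90893115) and Cxcl2 (chr5:90903871-90905938) are on the plus strand of chromosome 5, and Cxcl9 (chr5:92321347-92328079) and Cxcl10 (chr5:92346638-92348889) on its minus strand. Ccl2 (chr11:82035571-82037453) and Ccl7 (chr11:82045712-82047525) are on the plus strand of chromosome 11, while Cxcl16 (chr11:70453983-70459984, minus strand) and Cx3cl1 (chr8:94772009-94782427, plus strand) stand alone.

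RefSeq promoter sequence (GRCm38.p6) was at hand for 5 of the 8 genes, and the promoters of both neighbouring pairs on chromosome 5 are shown because the motifs in them differ between the neutrophil ligands and the interferon-induced ligands. Motifs were searched in the 250 bases before the RefSeq start of each gene. The sequences are written 5′ to 3′ in the direction of the gene and end where the search window ends or, if earlier, just before the GENCODE start of the gene, with matches to any of 5 motifs in capitals. The motifs were GGGNNNTTC (an NF-kB site), GAAANNGAA (an interferon-stimulated response element), TTCNNNGAA (a STAT site), TGAGTCA (an AP-1 site) and TATAAA (the TATA box), each read on both strands. The windows are chr5:90890995-90891240 for Cxcl1, chr5:90903649-90903870 for Cxcl2, chr5:92328080-92328329 for Cxcl9 and chr5:92348890-92349139 for Cxcl10.
Cxcl1: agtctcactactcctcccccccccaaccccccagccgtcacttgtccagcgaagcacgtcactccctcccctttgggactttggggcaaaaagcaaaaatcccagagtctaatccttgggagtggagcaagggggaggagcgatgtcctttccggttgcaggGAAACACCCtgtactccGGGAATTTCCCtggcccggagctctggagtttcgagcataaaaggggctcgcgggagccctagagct
Cxcl2: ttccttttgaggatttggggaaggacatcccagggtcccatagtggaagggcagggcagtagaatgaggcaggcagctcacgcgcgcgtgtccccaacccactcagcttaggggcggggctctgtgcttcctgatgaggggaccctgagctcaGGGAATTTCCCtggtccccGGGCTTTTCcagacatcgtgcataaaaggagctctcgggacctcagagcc
Cxcl9: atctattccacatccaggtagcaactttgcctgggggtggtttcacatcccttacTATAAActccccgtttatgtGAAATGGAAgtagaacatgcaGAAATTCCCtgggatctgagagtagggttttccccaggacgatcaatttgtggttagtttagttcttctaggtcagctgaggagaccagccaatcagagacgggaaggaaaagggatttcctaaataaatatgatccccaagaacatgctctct
Cxcl10: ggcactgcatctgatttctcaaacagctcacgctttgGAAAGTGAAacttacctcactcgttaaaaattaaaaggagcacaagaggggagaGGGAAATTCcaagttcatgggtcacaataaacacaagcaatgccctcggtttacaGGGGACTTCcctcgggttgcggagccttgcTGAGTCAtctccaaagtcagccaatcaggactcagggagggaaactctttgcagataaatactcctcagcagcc
Positions are counted back from the RefSeq start. Cxcl1 held 3 NF-kB matches with first bases at -88, -71 and -69, of which the last 2 overlap on opposite strands. Cxcl2 held 3 NF-kB matches at -97, -95 and -78, of which the first 2 overlap in the same way. Neither gene had a match to the interferon motif. Cxcl9 and Cxcl10 each held 1 interferon motif, at -175 and -213, together with 1 NF-kB match in Cxcl9 at -154 and 2 in Cxcl10 at -159 and -104, and Cxcl10 alone had an AP-1 match, at -74. In the 250-base windows of the 5 promoters, 4 held an NF-kB match, 2 an interferon motif, 1 an AP-1 match, 0 a STAT match and 2 a TATA box, in Cxcl9 at -195 and in Cx3cl1, not shown, at -6. Among all 32851 promoters of 250 bases the corresponding shares were 11.8%, 7.13%, 4.46%, 7.02% and 12.4%, and a match describes letters and not binding.

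Summed over all barcodes, the control matrix held 85794655 and the B16-F10 matrix 104978816 unique molecular identifiers (UMIs, each counting 1 captured RNA molecule). After limits on genes and mitochondrial RNA per cell and the removal of called doublets, 7830 control and 7767 B16-F10 cells remained, with a median of 7500 and 8544 UMIs, of which 6951 and 6325 were ECs. The barcodes of 18 cells occurred in both libraries. Clusters were named from markers as general capillary (gCap-like, 3927 and 3674 cells), aerocyte capillary (aCap-like, 1455 and 969), artery-like (222 and 163), vein-like (281 and 284) and lymphatic (LEC-like, 57 and 51) cells. An EC cluster with Hey1 and Efnb2 among its leading genes (1002 and 880 cells) carried 7 of 8 gCap markers. It was left unnamed because the artery marker Efnb2 and no gCap marker was among its 10 leading genes, so its cells are in no gCap-like value and are described beside it. A cluster led by Csf2, Sox9, Prnd and Fosl1 held 7 control and 304 B16-F10 cells and was also left unnamed. Levels are UMIs summed over the cells of a class, per 1000000 UMIs of that sum (CPM), and ratios are log2 of B16-F10 over control with an exact conditional binomial 95% interval. A gene counted as called with at least 50 UMIs over both sums, a 2-fold difference and an interval on 1 side of 0.

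The capillary classes were made up of different shares of their clusters in each library. In gCap-like cells a cluster led by Lalba, Tmem252 and Adamts9 went from 114 control to 1093 B16-F10 cells, while a cluster led by Sox11 and Hilpda went from 1497 to 428. In aCap-like cells 1 cluster kept 942 and 902 cells and the other went from 513 to 67. The members were left out of the genes used to cluster, so that their own levels did not place the cells.

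Of the 8 genes, 4 had enough UMIs for a ratio in gCap-like cells, and 2 of these, Cxcl9 and Cxcl10, were called higher after B16-F10 and 0 lower. Of all genes with enough UMIs in that class, 3.22% were called higher and 2.44% lower. In aCap-like cells 1 member, Cxcl10, was called higher, beside 2.19% of all genes. Over all ECs summed, Cxcl2, Cxcl9 and Cxcl10 were called higher, beside 3.59% of all genes. Since the list was chosen with these contrasts known, nothing is read from its count against those shares.

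**Figure D1:**
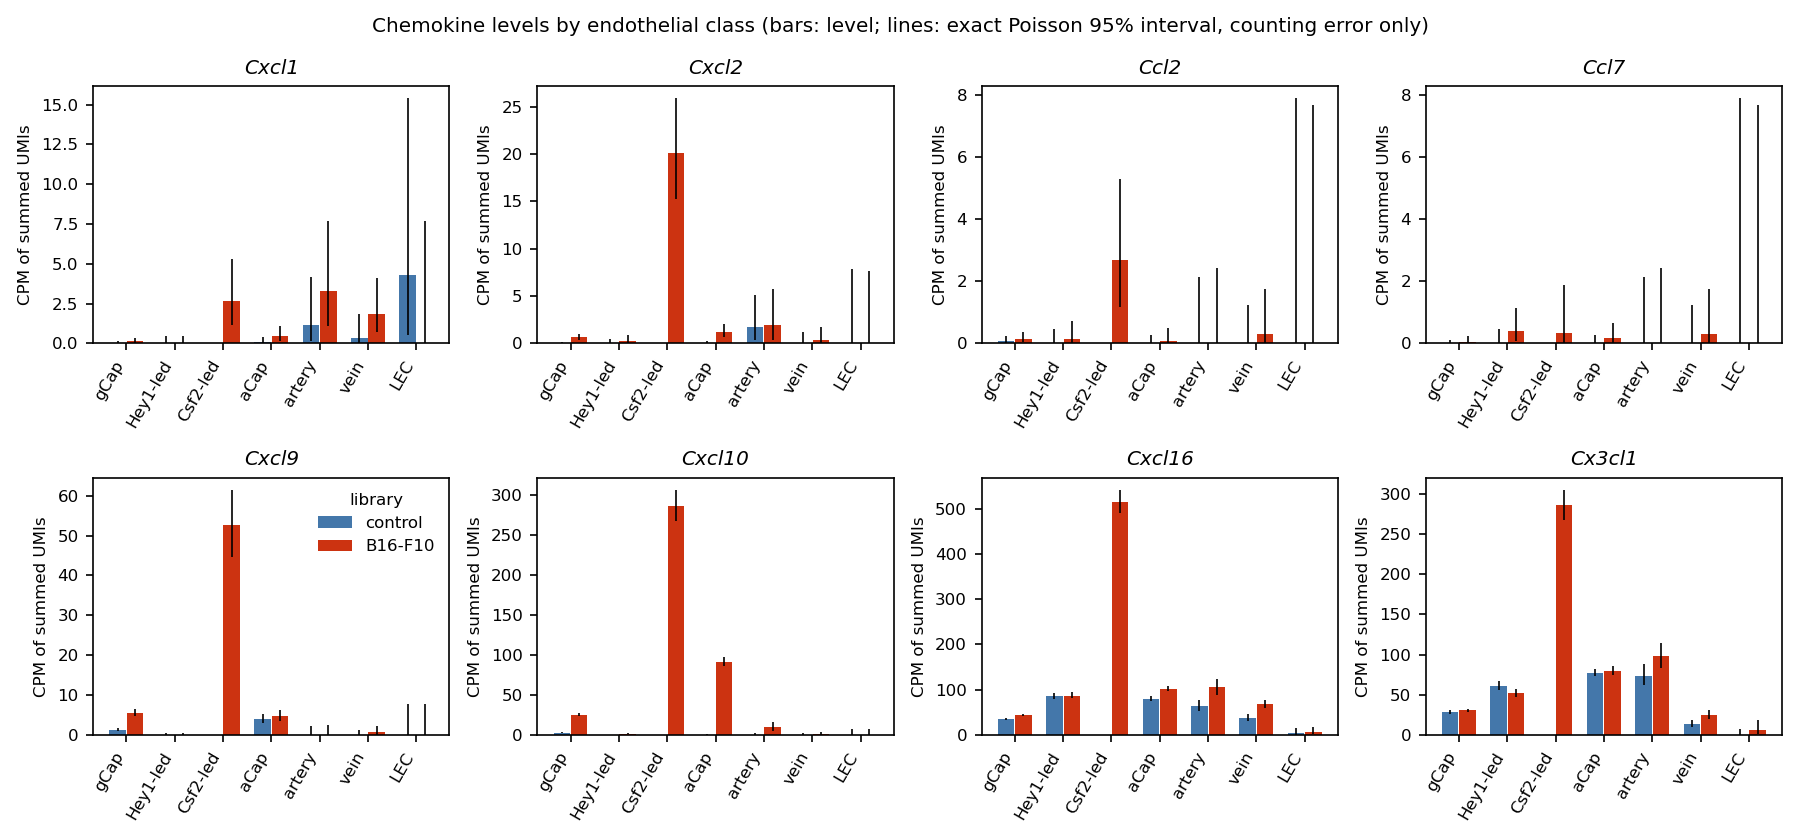
Level of each chemokine (CPM of summed UMIs, y axis) by endothelial class (x axis) in the control (blue) and B16-F10 (red) library, with exact Poisson 95% intervals for counting error as lines. The control bar of the Csf2-led cluster, which had 7 cells, is not drawn. Cxcl10 stands out in the aCap-like class and the Csf2-led cluster of the B16-F10 library, while Cxcl16 and Cx3cl1 lie above 10 CPM in both libraries in every class drawn but the LEC-like one.

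Cxcl10 had the largest ratio of the 4 measured members in both capillary classes. In gCap-like cells its UMIs went from 78 to 814 and its level from 2.69 to 25.3 CPM, a log2 ratio of 3.23 (2.90 to 3.59). In aCap-like cells they went from 3 to 1000 UMIs and from 0.228 to 91.9 CPM, a log2 ratio of 8.66 (7.10 to 10.94). Free RNA, estimated from barcodes of 1 to 100 UMIs and the share of RNA from cells that the sort removes, would give 0.0182 and 1.08 CPM in gCap-like cells and 0.0322 and 0.791 CPM in aCap-like cells, below each of these levels.

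Elsewhere in the vessels Cxcl10 was sparse. Artery-like cells held 0 control and 15 B16-F10 UMIs, with 2.03 as the lower limit of the log2 ratio, but 12 of the 15 were in 1 cell. Vein-like cells held 1 and 5 UMIs, and the 1.57 CPM of the B16-F10 library was below the 2.59 CPM that free RNA would give. The Hey1-led cluster held 0 and 11 UMIs in 11 cells, and its 1.42 CPM was likewise below the free RNA value of 1.51 CPM. LEC-like cells had 0 in both libraries. In the named classes of the B16-F10 library the level was thus highest in aCap-like and next in gCap-like cells. The artery-like value rests on a single cell. The vein-like and LEC-like values did not exceed those of free RNA, which are upper values.

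The Csf2-led cluster, almost absent from control, had the highest level, with 857 Cxcl10 UMIs or 287 CPM in its 304 B16-F10 cells. Of the 2829 Cxcl10 UMIs in all kept B16-F10 cells, 35.3% were in aCap-like cells, 30.7% in the unnamed EC clusters and 28.8% in gCap-like cells. Clusters of mixed identity, which carry endothelial markers beside those of another cell type, held 111 UMIs, up from 2 in control (log2 ratio 5.49, 3.60 to 8.55). There were 9 UMIs in melanoma-like, 6 in macrophage/monocyte-like and 0 in lymphoid-like cells.

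The Cxcl10 signal was carried by few cells. A Cxcl10 UMI was found in 19 of 6951 control ECs (0.273%) and 185 of 6325 B16-F10 ECs (2.92%), while free RNA alone would give 1.06% in the latter. In gCap-like cells the share went from 15 of 3927 (0.382%) to 80 of 3674 (2.18%), beside 0.943% from free RNA alone. In aCap-like cells it was 3 of 1455 and 56 of 969 (5.78%, exact interval 4.39 to 7.44), beside 0.883%. The B16-F10 shares exceed those of free RNA in both classes, but a single UMI in a cell cannot be told from it.

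Cells with at least 5 Cxcl10 UMIs were counted for that reason. There were 2 such ECs in control, with 17 and 47 UMIs, which together held 64 of the 82 control UMIs. In B16-F10 there were 45, with a lowest of 5, a median of 22 and a highest of 317 UMIs, and they held 2508 of the 2702 EC UMIs (92.8%). They lay in 3 places above all, with 17 in the aCap-like class, 14 in the Csf2-led cluster and 13 in the gCap-like class, plus 1 artery-like cell and 0 in the vein-like, LEC-like and Hey1-led cells. Because UMIs of 1 cell are not independent, the intervals on Cxcl10 and Cxcl9 ratios are too narrow.

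**Figure D2:**
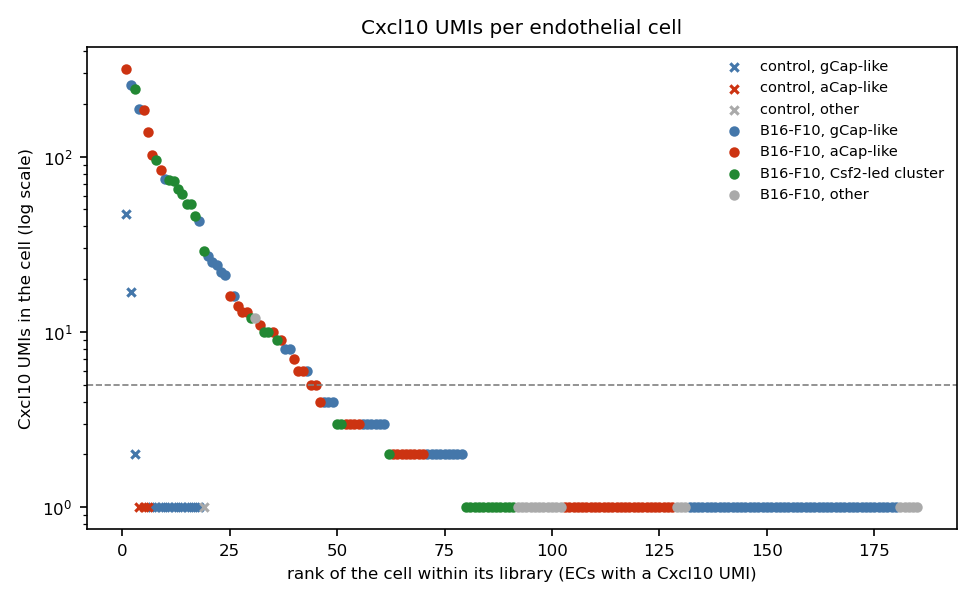
Cxcl10 UMIs in each EC with at least 1 (y axis, log scale) against the rank of the cell within its library (x axis), with crosses for control, circles for B16-F10 and colours for the class. The dashed line is at 5 UMIs, with 2 control and 45 B16-F10 cells at or above it.

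The 45 cells were compared with the 6140 B16-F10 ECs without a Cxcl10 UMI, and Cxcl9, Cxcl16 and Cx3cl1 were higher in them. Cxcl9 was at 674 against 0.246 CPM, and 12 of the 45 cells held 342 of the 388 Cxcl9 UMIs in B16-F10 ECs. Cxcl16 was at 347 against 81.9 CPM (log2 ratio 2.08), and Cx3cl1 at 428 against 52.5 CPM (3.03). These sums mix classes, and 14 of the 45 cells are from the Csf2-led cluster, which is high in both genes throughout. Within classes the Cxcl16 ratio was 2.32 in gCap-like, 0.86 in aCap-like and 0.66 in Csf2-led cells, and the Cx3cl1 ratio 3.08, 1.03 and 1.98. The direction was the same in these 3 classes, and since cells of 1 library are no replicates and were picked by Cxcl10 itself, this is a description. Cxcl2 was at 51.2 against 1.25 CPM and Ccl2 at 9.86 against 0.158 CPM over all ECs, and in gCap-like and aCap-like high cells both were at 0. The 26 Cxcl2 and 5 Ccl2 UMIs of the high cells all lay in the Csf2-led cluster, those of Ccl2 in 1 cell. Ccl7 was at 0 in the 45 cells and Cxcl1 at 1.97 CPM.

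Interferon and NF-kB regulators differed in the same cells. Irf1, a transcription factor of the interferon-gamma response, was at 1145 against 223 CPM (log2 ratio 2.36), and Irf8 at 90.7 against 9.11 CPM. Socs1, a feedback inhibitor of cytokine signalling, was at 104 against 9.27 CPM. Within gCap-like, aCap-like and Csf2-led cells the Socs1 ratio was 3.42, 3.46 and 0.96. The last had an interval that spans 0 (-0.54 to 2.16). For Irf8 the ratios were 3.54, 3.04 and 2.00, with 3 UMIs in the aCap-like high cells. The study's list of 50 interferon-response genes, chosen partly on these libraries, summed to 15776 against 4437 CPM (1.83, 1.80 to 1.86). The list of 15 interferon signal genes (receptors, kinases and regulators) summed to 3719 against 2003 CPM (0.89, 0.83 to 0.96). For the 21 genes of the NF-kB signal list the sums were 3359 against 1857 CPM (0.85, 0.78 to 0.92). Within classes the interferon-response list was at 2.34 in gCap-like, 1.79 in aCap-like and 3.39 in Csf2-led cells. In the same order the interferon signal list was at 0.88, 1.02 and 1.26 and the NF-kB list at 0.53, 1.06 and 0.24.

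Genes of adhesion molecules that slow or arrest leukocytes varied by class. Icam1 was higher in the 45 cells, at 1660 against 293 CPM (2.50), with ratios of 2.52 in gCap-like, 1.85 in aCap-like and 0.59 in Csf2-led cells. Vcam1 was at 392 against 86.7 CPM, and at 630 against 22.1 CPM within gCap-like, 20.2 against 4.72 CPM within aCap-like and 417 against 92.1 CPM within Csf2-led cells. Sele, the gene of E-selectin, was at 82.8 against 17.1 CPM, but within the Csf2-led cluster its ratio was 0.07 (-0.56 to 0.64). Selp, the gene of P-selectin, was at 19.7 against 32.9 CPM (-0.74, -1.80 to 0.14), an interval that spans 0, as did those within the gCap-like class and the Csf2-led cluster, and the aCap-like high cells held 2 UMIs each of Sele and Selp. The 45 cells were ECs by their markers, with endothelial markers summing to 8947 against 10790 CPM, macrophage/monocyte markers to 35.5 against 29.5 CPM and melanoma markers to 41.4 against 54.4 CPM. Their median depth was 11343 against 9016 UMIs.

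Cxcl9, the other interferon-induced Cxcr3 ligand, was in fewer cells still. In gCap-like cells it had 39 control and 178 B16-F10 UMIs, or 1.35 and 5.54 CPM, a log2 ratio of 2.04 (1.53 to 2.58). Those UMIs came from 3 and 9 cells, and the highest cell held 32 of the 39 and 80 of the 178. In aCap-like cells it had 53 and 51 UMIs in 3 and 5 cells, or 4.03 and 4.69 CPM, a log2 ratio of 0.22 (-0.36 to 0.80), and 51 of the 53 control UMIs were in 1 cell. The aCap-like ratio was lower than the gCap-like ratio by 1.82 on the log2 scale (interval of the difference -2.57 to -1.08), but leaving out the highest cell of each library gave 3.66 in gCap-like and 3.74 in aCap-like cells, so that the difference was carried by single cells.

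Summed over all ECs, Cxcl9 went from 92 UMIs in 6 cells to 388 UMIs in 25 cells, or from 1.66 to 6.58 CPM (log2 ratio 1.99, 1.66 to 2.33). The Csf2-led cluster held 157 of the B16-F10 UMIs (52.6 CPM), vein-like cells 2, and artery-like, LEC-like and Hey1-led cells 0. In control, 127 of the 219 Cxcl9 UMIs of all kept cells lay in clusters of mixed identity that entered no vessel class, which held 12 in B16-F10. The intervals of the gCap-like and aCap-like levels in B16-F10 overlapped.

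Most Cxcl10 UMIs of gCap-like cells were in the Lalba-led cluster. It held 64 of the 78 control UMIs and 752 of the 814 B16-F10 UMIs, and its own level was 71.1 CPM in control and 73.3 CPM in B16-F10, a log2 ratio of 0.04 (-0.33 to 0.43). The control value came from 2 cells. Without the cluster the gCap-like ratio was 2.51. In the other gCap-like clusters Cxcl10 lay between 0.152 and 2.46 CPM in control and between 1.16 and 7.33 CPM in B16-F10.

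Cxcl9 in B16-F10 gCap-like cells was also mostly in the Lalba-led cluster, with 174 of 178 UMIs (17.0 CPM) and 0 in its control cells. The control UMIs were instead in the Sox11-led cluster, with 38 of 39. Without the Lalba-led cluster the Cxcl9 ratio turned to -2.93, so that its direction in gCap-like cells rests on that cluster. In aCap-like cells 999 of the 1000 Cxcl10 UMIs were in the cluster of stable size, where the level went from 0.291 to 94.7 CPM (8.34, 6.79 to 10.62).

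The study described a reactive state of gCap cells (rCap), and its list of 50 rCap genes, chosen partly on these libraries and including Lalba, ranked the gCap-like cells of each library into 3 groups of equal size, from low to high. With each cell thinned to 2000 UMIs the scores ran from 5 to 19, 19 to 26 and 26 to 76 UMIs in control and from 7 to 34, 34 to 52 and 52 to 129 in B16-F10, so that groups of the same name hold different scores in each library and are compared within a library. Cxcl10 was highest in the high group of both libraries, at 0.216, 2.00 and 5.81 CPM in the low, middle and high group of control and at 1.70, 3.71 and 68.9 CPM in B16-F10. Cxcl9 followed the same order, at 0, 0.100 and 3.94 CPM in control and 0, 0.286 and 15.8 CPM in B16-F10. Most of the Cxcl10 and Cxcl9 signal of gCap-like cells thus lay in cells with high rCap scores. In control this rests on single cells, since 1 cell held 47 of all Cxcl10 UMIs, where the high group had 56, and 1 cell held 32 of the Cxcl9 UMIs, where it had 38. In B16-F10 it rests on few cells, since 13 of the 3674 gCap-like cells held 717 of the 814 Cxcl10 UMIs. Of those 13 cells, 3 held 169 of the 178 Cxcl9 UMIs.

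Cxcl16 and Cx3cl1 followed the score more evenly. Cxcl16 was at 29.2, 35.3 and 43.7 CPM in control and at 29.0, 42.7 and 57.3 CPM in B16-F10. Cx3cl1 was at 25.2, 27.7 and 32.4 CPM in control and at 19.9, 29.9 and 42.1 CPM in B16-F10. Each group held 1215 to 1289 cells.

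**Figure D3:**
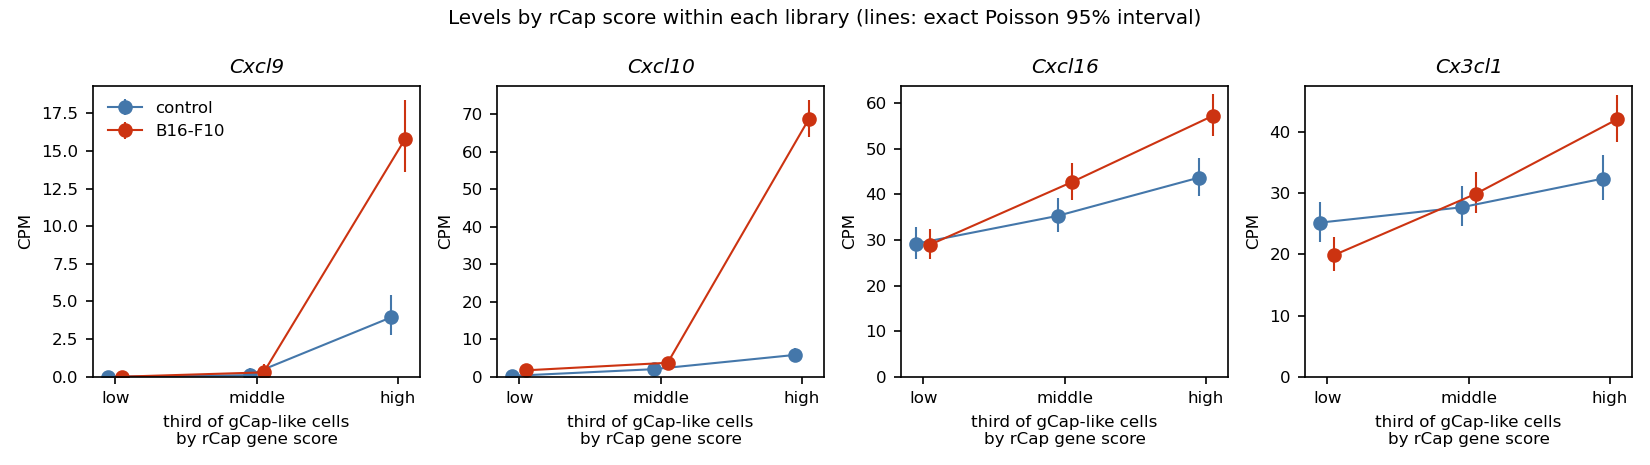
Level (CPM, y axis) of 4 chemokines in the low, middle and high group of gCap-like cells by summed rCap genes (x axis), ranked within the control (blue) and the B16-F10 (red) library, with exact Poisson 95% intervals as lines. All 4 are highest in the high group of each library, and Cxcl9 and Cxcl10 are close to 0 in the low group.

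Cxcl16 was broadly expressed in both libraries and differed little between them. In gCap-like cells it had 1046 and 1386 UMIs, or 36.1 CPM (33.9 to 38.3) in control and 43.1 CPM (40.9 to 45.4) in B16-F10, a log2 ratio of 0.26 (0.14 to 0.37). In aCap-like cells it had 1058 and 1112 UMIs, or 80.4 and 102 CPM (0.35, 0.22 to 0.47). Its interval lay above 0 in both capillary classes, but neither reached the 2-fold limit.

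Artery-like and vein-like cells had larger Cxcl16 ratios than gCap-like cells. Artery-like cells had 109 and 159 UMIs, or 63.4 and 105 CPM (0.73, 0.37 to 1.09). Vein-like cells had 112 and 217 UMIs, or 37.9 and 68.1 CPM (0.85, 0.51 to 1.19), beside free RNA of 0.646 and 6.81 CPM. Compared with gCap-like cells the ratio was higher by 0.47 (0.10 to 0.84) in artery-like and by 0.59 (0.24 to 0.94) in vein-like cells, and aCap-like and gCap-like cells differed by 0.09 (-0.08 to 0.26). These differences depended on the clustering. At a resolution of 0.4 the ratio was 0.77 in gCap-like, artery-like and vein-like cells alike. With classes set per cell without clustering it was 0.22, 0.34 and 0.93 in that order.

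The Hey1-led cluster had 682 and 676 Cxcl16 UMIs, or 85.1 and 87.2 CPM (0.04, -0.12 to 0.19), and LEC-like cells 2 and 3 UMIs. In B16-F10 the order of levels was the Csf2-led cluster at 515 CPM, then artery-like, aCap-like, Hey1-led, vein-like, gCap-like and LEC-like cells, and of neighbours in this order only the intervals of artery-like and aCap-like cells overlapped. In the Csf2-led cluster 251 of 304 cells (82.6%, 77.8 to 86.7) had a Cxcl16 UMI. Against the 12 UMIs of its 7 control cells (187 CPM) the log2 ratio was 1.46 (0.65 to 2.42), past the call limit and above the gCap-like ratio by 1.20 (0.37 to 2.03).

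The share of cells with a Cxcl16 UMI was 722 of 3927 gCap-like control cells (18.4%) and 881 of 3674 B16-F10 cells (24.0%), but with each cell thinned to 2000 UMIs it was 6.49% and 6.88%. In aCap-like cells it was 44.3% and 56.9%, or 13.9% and 18.2% after thinning. Most of the unthinned difference in gCap-like cells was therefore within the difference of depth, and that in aCap-like cells was in part retained at 2000 UMIs. With cells thinned to 4000 UMIs the aCap-like shares were 27.3% (24.8 to 29.8) and 30.0% (27.1 to 33.1), with overlapping intervals. Among cells of other kinds, 3 of 67 lymphoid-like (4.48%) and 0 of 77 melanoma-like B16-F10 cells had a Cxcl16 UMI, the latter allowing a share of up to 3.90%, at median depths of 7282 and 8200 UMIs. Macrophage/monocyte-like cells had a Cxcl16 UMI in 2 of 6 control cells (232 CPM) and 6 of 37 B16-F10 cells (16.2%, 69.6 CPM). In that class 1 cell held 22 of the 24 control UMIs and 1 cell 31 of the 39 B16-F10 UMIs.

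Cx3cl1, the ligand of the monocyte receptor Cx3cr1, was also present in control. In gCap-like cells it had 826 and 988 UMIs, or 28.5 and 30.7 CPM (log2 ratio 0.11, -0.03 to 0.24), and in aCap-like cells 1022 and 872 UMIs, or 77.6 and 80.1 CPM (0.05, -0.09 to 0.18). Both intervals span 0, and no difference between the libraries was detectable in the capillary classes at this depth.

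In the other classes the Cx3cl1 ratios went both ways, above 0 in artery-like and vein-like cells and below 0 in the Hey1-led cluster. It was at 73.9 and 97.8 CPM in artery-like cells (127 and 148 UMIs, 0.40, 0.05 to 0.76), at 14.2 and 25.1 CPM in vein-like cells (42 and 80 UMIs, 0.82, 0.26 to 1.40) and at 61.5 and 51.6 CPM in the Hey1-led cluster (493 and 400 UMIs, -0.25, -0.45 to -0.06). The vein-like ratio was above the gCap-like one by 0.71 (0.16 to 1.27), the artery-like one by 0.30 (-0.07 to 0.66). Without the highest cell of each library the artery-like ratio was 0.31, with an interval that spans 0 (-0.06 to 0.68). LEC-like cells held 0 and 3 UMIs. In the B16-F10 library the levels fell in the order artery-like, aCap-like, Hey1-led, gCap-like, vein-like and LEC-like, where the intervals of artery-like and aCap-like cells and those of gCap-like and vein-like cells overlapped.

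The Csf2-led cluster again had the highest level, with 852 UMIs or 286 CPM, and 216 of its 304 cells (71.1%) had a Cx3cl1 UMI. Its 7 control cells held 1 UMI, a log2 ratio of 4.19 (1.71 to 9.50). That cluster and the Hey1-led one together held 35.7% of all Cx3cl1 UMIs and 39.9% of all Cxcl16 UMIs in the kept B16-F10 cells. Over all ECs summed, where the cells of that cluster enter the B16-F10 sum, Cxcl16 went from 54.5 to 86.4 CPM (0.66, 0.60 to 0.73) and Cx3cl1 from 45.3 to 56.7 CPM (0.32, 0.25 to 0.40). Both were thus larger than within the gCap-like class.

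**Figure D4:**
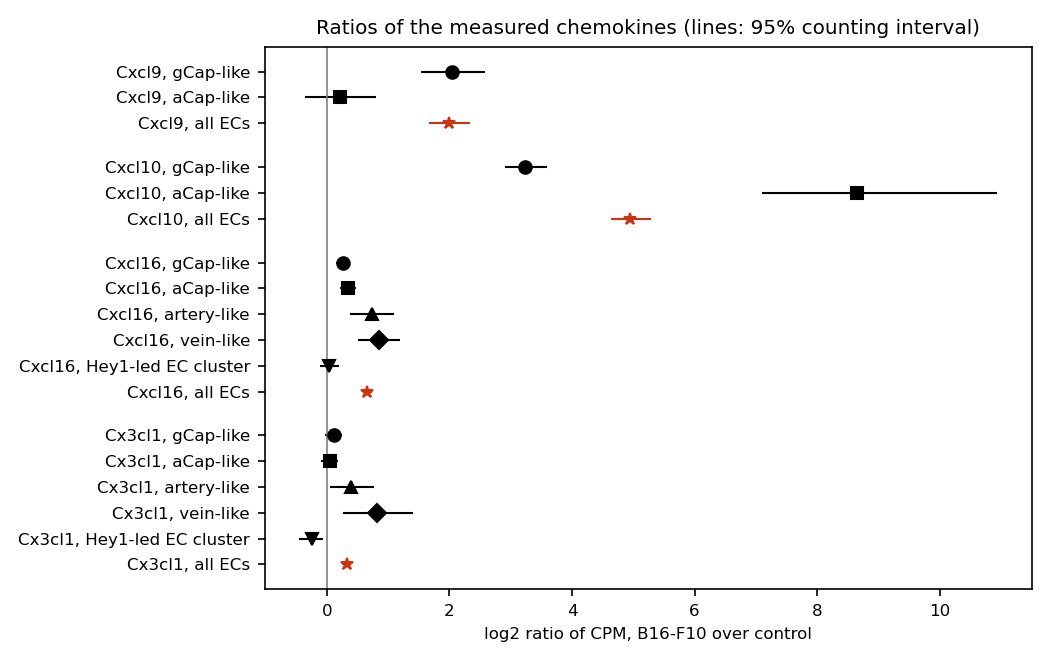
Log2 ratio of CPM, B16-F10 over control (x axis), for the 4 chemokines with at least 50 UMIs in gCap-like cells, by class (y axis), with the 95% counting interval as a line and all ECs summed as red stars. Cxcl10 in aCap-like cells is the farthest from 0, at 8.66, while every Cxcl16 and Cx3cl1 point shown lies below 1. The Csf2-led cluster, with 7 control cells, is not shown.

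Some members were found together in single cells. With cells thinned to 2000 UMIs, 36 B16-F10 gCap-like cells held both Cxcl16 and Cx3cl1, where independence would give 13.8, beside 22 and 14.2 in control. In aCap-like cells the same pair was found in 26 cells where independence would give 28.1 in control, and in 29 where it would give 24.0 in B16-F10. Cxcl10 was found with Cxcl16 in 6 gCap-like B16-F10 cells (1.86 under independence) and with Cx3cl1 in 7 (1.49), small counts within 1 library.

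The neutrophil ligands were nearly absent from the vessels. Cxcl2 had 0 control and 21 B16-F10 UMIs in gCap-like cells (0.653 CPM, lower limit of the log2 ratio 2.23), of which free RNA could supply 0.310 CPM, and 0 and 13 UMIs in aCap-like cells (1.19 CPM, lower limit 1.88), beside free RNA of 0.226 CPM. Over all ECs it went from 3 UMIs in 1 cell to 100 UMIs in 48 cells, or from 0.0542 to 1.70 CPM (log2 ratio 4.97, 3.38 to 7.27), and 60 of the 100 lay in the Csf2-led cluster (20.1 CPM), where 1 cell held 26. Of the 394 Cxcl2 UMIs in all kept B16-F10 cells 5.33% were in gCap-like cells, while 39.3% were in a cluster of melanoma and macrophage cells and 34.0% in 19 neutrophil-like cells.

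Leukocytes that passed the sort had the highest Cxcl2 levels. Macrophage/monocyte-like cells held 0 UMIs in 6 control cells and 155 UMIs in 37 B16-F10 cells (277 CPM), and neutrophil-like cells 71 UMIs in 1 of 3 control cells and 134 UMIs in 19 B16-F10 cells (987 CPM). Cxcl1 was at 0 in both of these classes and had 6 control and 28 B16-F10 UMIs over all ECs, with 0 and 4 in gCap-like, 1 and 5 in aCap-like, 2 and 5 in artery-like, 1 and 6 in vein-like, 2 and 0 in LEC-like cells and 0 and 8 in the Csf2-led cluster. No class had enough Cxcl1 UMIs for a call.

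The monocyte ligands were at the floor in ECs. Ccl2 had 2 and 5 UMIs in gCap-like cells (0.0690 and 0.156 CPM), 0 and 1 in aCap-like cells and 2 and 16 over all ECs, of which 8 lay in the Csf2-led cluster. The macrophage/monocyte-like cells went from 4 to 106 UMIs (38.6 and 189 CPM), the latter being 84.1% of the 126 Ccl2 UMIs in kept B16-F10 cells, although 53 of them lay in 1 cell. Most Ccl2 UMIs of this sort thus lay in macrophage/monocyte-like cells.

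Ccl7 had 0 control and 9 B16-F10 UMIs over all ECs, each in a different cell and with 0.89 as the lower limit of the log2 ratio, of which 2 were in gCap-like, 2 in aCap-like and 3 in Hey1-led cells. Of the 34 Ccl7 UMIs in kept B16-F10 cells, 22 (64.7%) were in clusters of mixed identity and 3 in macrophage/monocyte-like cells.

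Markers of other cells moved with the condition in the same gCap-like sums, some lists up and others down. The 8 macrophage/monocyte markers summed to 17.4 CPM in control, with 1 of them at 0, and 30.4 CPM in B16-F10. The 8 neutrophil markers summed to 0.724 and 7.25 CPM, the 8 lymphoid markers to 1.52 and 1.80 CPM and the 8 melanoma markers to 26.6 and 54.3 CPM. The 8 mural markers, of pericytes and smooth muscle, summed to 27.7 and 49.2 CPM and the 8 fibroblast markers to 13.0 and 23.5 CPM, while 8 endothelial markers summed to 11841 and 10453 CPM. The 8 epithelial markers fell from 210 to 162 CPM and the 6 platelet markers from 14.7 to 11.4 CPM. The 6 erythroid markers rose from 997 to 1346 CPM. In aCap-like cells the macrophage/monocyte markers summed to 13.6 and 24.4 CPM, the neutrophil ones to 1.22 and 6.34 CPM, the melanoma ones to 46.3 and 66.8 CPM, the mural ones to 34.4 and 24.1 CPM and the fibroblast ones to 4.41 and 11.9 CPM. The epithelial ones fell there from 159 to 127 CPM, the platelet ones from 24.6 to 18.1 CPM and the erythroid ones from 1989 to 977 CPM. In the B16-F10 cells of the Csf2-led cluster the mural markers summed to 277 CPM, the macrophage/monocyte ones to 40.2 CPM, with 3 of 8 at 0, and the endothelial ones to 8481 CPM. Their part in the chemokine ratios was not tested. In cells without a UMI of the macrophage/monocyte, neutrophil, lymphoid, platelet or melanoma lists, the gCap-like ratio was -2.87 for Cxcl9. It was 3.03 for Cxcl10, 0.31 for Cxcl16 and 0.17 for Cx3cl1 in those cells.

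Other genes of the pathway were counted in gCap-like cells over whole lists. Over all measured genes of that class the median was -0.04, with 3.22% called higher and 2.44% lower. The part that the different make-up of the class in each library has in these ratios was not tested. Of 21 measured NF-kB signal genes 7 were called higher and 0 lower, with a median log2 ratio of 0.64. They included the NF-kB cofactors Bcl3 (2.79, 19.1 to 132 CPM) and Nfkbiz (2.38, 7.14 to 37.2 CPM), the subunits Relb (1.38) and Nfkb2 (1.22), the inhibitor Nfkbie (1.26) and the TNF receptor Tnfrsf1b (1.20). In aCap-like cells 7 of 20 measured genes of this list were called higher, with a median of 0.63, beside 2.19% of all measured genes.

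Of 15 interferon signal genes 2 were called higher, with a median of 0.28. These were the transcription factor Irf8 (3.08, 1.14 to 9.64 CPM) and Socs1 (1.10), while Irf1 was at 0.29. In aCap-like cells 1 of 14 was called higher, with a median of 0.35. Most genes of this list were thus within 2-fold of control in both capillary classes.

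Chemokine transcripts are short-lived, and of 7 genes of mRNA decay 1 was called higher, Zfp36 (1.86, 61.0 to 221 CPM), whose protein promotes the decay of transcripts with AU-rich elements. Of 11 measured genes of ligand shedding and presentation on heparan sulfate 0 were called by the rule on these sums, and the proteases Adam10 and Adam17 were at -0.33 and 0.02. Of 10 measured adhesion genes 3 were called higher, Selp (8 to 472 UMIs, 5.73), Sele (18 to 269 UMIs, 3.75) and Vcam1 (73 to 841 UMIs, 3.38), and Icam1 was at 0.76.

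Among other chemokine ligands 10 of the 28 present were measured in gCap-like cells and 3 called higher, with a median of 0.02. These were Cxcl14 (1.59 to 4.48 CPM), Ccl6 (1.42) and Cxcl15 (1.19), of which the last 2 were close to the free RNA supply, with Ccl6 at 1.10 and 2.96 CPM beside 1.07 and 2.67 from free RNA and Cxcl15 at 1.90 and 4.32 CPM beside 1.36 and 3.83. Cxcl12, a homeostatic ligand of Cxcr4, was at 343 and 317 CPM (-0.11).

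Of 8 measured chemokine receptors 1 was called higher and 2 lower, with a median of -0.54. Ackr3, which scavenges Cxcl12 and is on the study's rCap list, went from 75.1 to 241 CPM (1.68), while Cxcr4 went from 16.8 to 2.92 CPM (-2.53) and Ccr9 had a ratio of -1.07. Of the receptors that bind the 8 ligands, Cx3cr1 had 282 and 492 UMIs (0.65) and Cxcr2 56 and 32 (-0.96), and Ackr2, a decoy receptor of inflammatory CC chemokines, had 2330 and 3123 (80.4 and 97.1 CPM, 0.27), while Cxcr3, Cxcr6, Ccr2 and the decoy receptor Ackr1 had at most 8 UMIs in either library.

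Genes with the most similar pattern over the 5 vessel classes in both libraries (10 points that share libraries and depth, Pearson's r of log2(CPM + 1), a description) were Col4a2 (0.97), Eif4e and Brd2 (0.94 each) for Cxcl9 and Prdx1 (0.95), Znhit3 and Psma5 (0.93 each) for Cxcl10. For Cxcl16 they were Poglut2 (0.98), Ecm1 and Tmod3 (0.97 each), and for Cx3cl1 Rpe (0.98), Ranbp3 and Zfp697 (0.97 each). The other 4 members had too few UMIs for this measure.

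**Figure D5:**
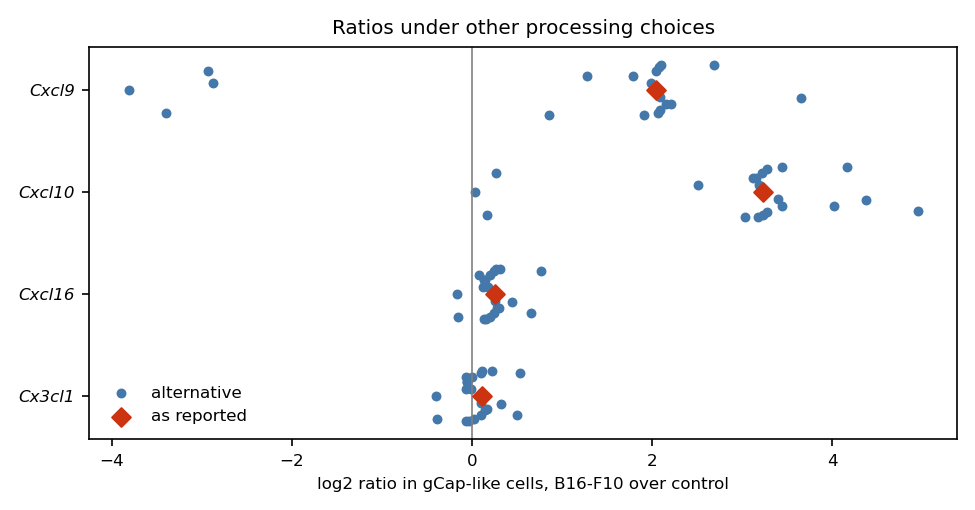
Log2 ratio in gCap-like cells, B16-F10 over control (x axis), of 4 chemokines (y axis) as reported (red diamonds) and under each processing alternative (blue dots). Cxcl10 stays above 0 in all 21 alternatives that gave a ratio, from 0.04 to 4.95, while Cxcl9 runs from -3.81 to 3.66 and Cxcl16 and Cx3cl1 lie within 1 of 0.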

How the data were processed

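Single-cell RNA of sorted lung cells was measured with a 10x Genomics 3′ kit (v2 per the labels) in 1 control and 1 B16-F10 library. The authors deposited raw UMI counts per gene and barcode over all barcodes, made with Cell Ranger 7.2.0 on mm10 per the file headers and the submitters' processing notes, while the methods name an earlier version. Whether introns were counted is not given in the sources used here. The labels give 2 mice per treatment and the methods 2 to 3 per pool. Labels do not say that pools were repeated, so no p-value was computed.

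The 32285 gene IDs were summed to 32245 symbols, since 38 symbols had more than 1 ID. A cell was kept if it had 1000 to 5000 genes and less than 20% of its UMIs from mitochondrial genes. Doublets were called with Scrublet per library at 0.8% per 1000 cells, which removed 564 of 8394 cells in control (6.72%) and 554 of 8321 in B16-F10 (6.66%). Of 3000 variable genes, those on the lists of members, other chemokine ligands and the study's rCap and interferon genes were left out. The rest were scaled within each library, and cells were clustered on 30 principal components with 20 neighbours and leidenalg 0.10.2 at a resolution of 0.8 (scanpy 1.11.5). Classes were named where at least 3 markers, and 50% of a marker list, were at least 1.5-fold higher in a cluster than in the other clusters, unless another class had more markers among the 10 leading genes. Melanoma-like and macrophage/monocyte-like cells were parted at a resolution of 1.6.

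UMIs were summed per class and library. Intervals of ratios were conditional binomial and those of levels exact Poisson, both at 95%, and shares have Clopper-Pearson intervals. All cover counting error only. Where control was 0, the lower limit of the log2 ratio is given. The share of cells that a count of 0 allows was set at 3 counts. Free RNA in a class was the CPM of a gene in barcodes of 1 to 100 UMIs times the share of free RNA in the class, which is an upper value taken from genes of cells that the sort removes. That share was 1.72% and 2.95% in gCap-like and 0.985% and 7.06% in vein-like cells. The ratio, its interval and the call were tested on simulated data with independent counts for each gene. UMIs concentrated in few cells, as for Cxcl9 and Cxcl10, were not simulated.

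The members and gene lists were chosen with earlier results of these data known. All 8 members are named, with at most 6 called genes of each list by size of ratio and the receptors that the members bind. Other genes named with a value, and the cells with at least 5 Cxcl10 UMIs, were picked after values were seen. For likeness, the 3 genes with the highest r among those with at least 500 UMIs are given. Alternatives changed the limits on cells, doublets, clustering, class rule, free RNA, scaling and the cells summed. Cxcl16, Ccl2 and Ccl7 had no entry in the RefSeq promoter table. The values of 1 gene are not reported here.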

Additional observations from a re-analysis of the deposited data

Results flagged for a closer look

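Cx3cl1 differed in direction between vessel classes. Its log2 ratio was 0.40 in artery-like and 0.82 in vein-like cells and -0.25 in the Hey1-led cluster, with intervals on opposite sides of 0. The difference between them was not tested over samples, since each group was 1 library. The artery-like ratio was 0.31 (-0.06 to 0.68) without the highest cell of each library and -0.09 after thinning to 2000 UMIs. The vein-like ratio was 0.93 (0.34 to 1.54) and 1.76 under the same changes.

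Several members were found in barcodes of 1 to 100 UMIs, which hold free RNA and no cell, above the control library. Cxcl2 had 36 UMIs (10.5 CPM) in B16-F10 beside 2 (0.353 CPM) in control, and Cxcl10 had 126 (36.7 CPM) beside 6 (1.06 CPM). Ccl7 had 6 UMIs (1.75 CPM) beside 1 (0.176 CPM), and Cxcl16 had 331 (96.4 CPM) beside 372 (65.6 CPM). The Cxcl2 and Ccl7 levels there were above those in each named vessel class of the B16-F10 library, and the Cxcl10 level lay between the gCap-like and aCap-like ones.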

How the results depend on the processing

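Depth and the number of cells limited these results, since 4 members stayed near 0 and the Cxcl9 and Cxcl10 sums rest on few cells of a single library in each group. No paired analysis was possible because there was 1 library per group, which gives no pairs. Alternatives that left out the highest cell of a gene, left out the Lalba-led cluster, used it by itself or weighted clusters equally were chosen after seeing the data. Cxcl10 stayed above 0 in gCap-like cells under all 21 alternatives with a ratio (0.04 to 4.95) and in aCap-like cells under 16 (8.62 to 10.02), and Cxcl16 in aCap-like cells under 18 (0.29 to 0.43).

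Cxcl9 in gCap-like cells (2.04 as reported) turned to -3.81 with at least 1500 genes per cell. It turned to -3.40 with classes set per cell without clustering. In cells without leukocyte, platelet or melanoma markers it turned to -2.87, and without the Lalba-led cluster to -2.93. Its ratio moved to 0.86 with no doublets removed, 1.28 and 2.69 at resolutions of 1.6 and 0.4, and 3.66 without the highest cell. Cxcl10 there (3.23) moved to 0.17 with 1500 genes, 4.17 at 0.4, 4.38 without clustering, 4.95 over all ECs, 4.02 without the highest cell, 2.51 without and 0.04 within the Lalba-led cluster and 0.27 with equal weights.

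Cxcl16 in gCap-like cells (0.26) moved to -0.15 with 1500 genes, 0.12 with no upper limit, 0.13 with no doublets removed and with all variable genes, 0.77 at 0.4, 0.08 after thinning, 0.66 over all ECs, -0.17 without the Lalba-led cluster and 0.45 with equal weights. Cx3cl1 there (0.11) moved to -0.40 with 1500 genes, -0.06 with no upper limit, with all variable genes and without clustering, -0.05 with 10% mitochondrial UMIs and with no doublets removed, -0.03 at 1.6, 0.54 at 0.4, 0.32 over all ECs, -0.39 without and 0.50 within the Lalba-led cluster. In aCap-like cells Cxcl9 moved to 6.41 in cells without other markers and 3.74 without the highest cell, and Cx3cl1 to -0.16 after thinning. In artery-like cells Cxcl16 moved to 0.34 without clustering, and Cx3cl1 to 0.83 with 500 genes and -0.09 after thinning. In vein-like cells thinning gave 0.48 for Cxcl16 and 1.76 for Cx3cl1.

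The number of members called higher in gCap-like cells (2) was 0 with 1500 genes and with the 1% of cells richest in the gene left out, where Cxcl10 went from 0 to 43 UMIs and gave no ratio. It was 1 with no doublets removed, without clustering, after thinning, in cells without other markers, without the Lalba-led cluster and within it. The cause was not tested. It was 3 with a minimum of 20 UMIs, at 0.4 and over all ECs. Over all measured genes the gCap-like median was -0.04, and dividing by it changed no call (Cxcl9 2.08, Cxcl10 3.28).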
